A study of Homo sapiens with 4 samples.

Results

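DNA replication and mitosis genes, 53 in all of 35606 genes in the count table, were compared between K562 cells that express the fusion JAZF1-SUZ12 and mock cells of the same line. The genes were chosen by symbol and every one was found. They comprise 33 genes of the replication machinery and the entry into S phase and 20 genes of mitosis. Each group had 2 RNA libraries, labelled JS-1 and JS-2 for the fusion and Mock-1 and Mock-2 for the control, here called JAZF1-SUZ12 1 and 2 and mock 1 and 2. K562 is a human chronic myeloid leukaemia line with erythroid features. JAZF1-SUZ12 joins a zinc finger protein to a core subunit of Polycomb repressive complex 2 and is known from endometrial stromal tumours. The labels name poly(A) mRNA libraries made with a directional kit. They do not say how the fusion was delivered, whether the mock cells carry an empty vector, whether the cells are 1 clone or a pool, or whether the libraries of a group come from separate cultures. P-values therefore measure only the spread between these libraries, which may be technical.

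Both gene sets report on dividing cells, at different points of the cycle. Before S phase, ORC, CDC6 and CDT1 load the ring of MCM2 to MCM7 at origins, and in S phase CDC45 and the GINS complex turn that ring into the active helicase while PCNA, loaded by the RFC complex, holds the polymerases on DNA. Later, cyclin B with CDK1 drives entry into mitosis, Aurora and Polo kinases build the spindle, and CDC20 with the anaphase-promoting complex ends it. Transcripts of the first set are known to peak around S phase through E2F sites in their promoters. Transcripts of the second are known to peak in G2 and mitosis through the cell cycle genes homology region, or CHR, which the DREAM and MuvB complexes bind, often near CCAAT boxes bound by NF-Y. In RNA from a whole culture, fewer cells in a phase and less RNA per cell cannot be told apart.

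The promoter letters set both groups apart before any expression value is read. RefSeq promoter windows of GRCh38.p14, from 250 bases before to 50 after each start site, matched 44 of the 53 genes by symbol. The 9 genes with no entry in that table were MCM4, MCM5, GINS4, CCNE2, UBE2C, AURKA, TTK, BIRC5 and TPX2. The 3 motifs below were searched on both strands: the E2F letters TTTCCCGC, TTTCGCGC, TTTGCCGC and TTTGGCGC, the CHR letters TTTGAA and TTTAAA, and CCAAT. E2F letters stood in 16 of 29 replication windows (55.2%) and in 1 of 15 mitosis windows (6.67%), against 3.31% of all 35114 windows. CHR letters stood in 12 of 15 mitosis windows (80%) and in 3 of 29 replication windows (10.3%), against 24% of all windows. CCAAT stood in 13 of 15 mitosis windows (86.7%) and in 16 of 29 replication windows (55.2%), against 34.6% of all. CHR letters and CCAAT occurred together in 10 mitosis windows (66.7%) and 2 replication windows (6.9%), against 9.27% of all.

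The 120 bases before the start site of 4 replication genes are shown first, because they carry E2F letters and their calls differ: PCNA, MCM6 and RFC3 fell, while TYMS did not pass the test. Whether the fold changes of these genes differ from each other was not tested. Capitals mark every match to any of the 3 motifs on either strand. In MCM6 the E2F letters of both strands overlap in one run.
PCNA (chr20:5126623-5126742, minus strand): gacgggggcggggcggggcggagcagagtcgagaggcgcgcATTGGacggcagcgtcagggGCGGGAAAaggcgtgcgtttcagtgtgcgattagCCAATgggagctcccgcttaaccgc
MCM6 (chr2:135876444-135876563, minus strand): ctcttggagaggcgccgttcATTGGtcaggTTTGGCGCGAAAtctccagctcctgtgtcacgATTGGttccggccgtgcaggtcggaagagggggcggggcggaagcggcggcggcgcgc
RFC3 (chr13:33818029-33818148, plus strand): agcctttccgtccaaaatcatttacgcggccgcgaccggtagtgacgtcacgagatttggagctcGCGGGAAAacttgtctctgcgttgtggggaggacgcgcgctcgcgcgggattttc
TYMS (chr18:657533-657652, plus strand): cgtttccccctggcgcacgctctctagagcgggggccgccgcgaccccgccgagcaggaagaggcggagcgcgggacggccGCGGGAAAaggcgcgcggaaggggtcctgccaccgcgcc

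The same stretch of RRM2, a replication gene with CHR letters, and of 4 mitosis genes is shown next, because RRM2, CCNB1 and CDC20 fell, MKI67 did not pass the test and BUB1 rose. The capitals again mark matches, and in MKI67 the CHR letters overlap an inverted CCAAT.
RRM2 (chr2:10122619-10122738, plus strand): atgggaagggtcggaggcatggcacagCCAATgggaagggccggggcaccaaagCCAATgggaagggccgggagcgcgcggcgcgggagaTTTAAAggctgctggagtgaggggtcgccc
CCNB1 (chr5:69167030-69167149, plus strand): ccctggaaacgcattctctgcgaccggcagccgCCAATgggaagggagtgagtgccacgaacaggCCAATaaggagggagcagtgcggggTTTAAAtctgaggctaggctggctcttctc
CDC20 (chr1:43358861-43358980, plus strand): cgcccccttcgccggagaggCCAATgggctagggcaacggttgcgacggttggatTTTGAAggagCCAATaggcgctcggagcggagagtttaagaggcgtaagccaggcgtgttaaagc
MKI67 (chr10:128126424-128126543, minus strand): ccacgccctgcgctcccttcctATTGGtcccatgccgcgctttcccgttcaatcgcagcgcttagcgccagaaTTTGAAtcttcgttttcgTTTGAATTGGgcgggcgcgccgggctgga
BUB1 (chr2:110678064-110678183, minus strand): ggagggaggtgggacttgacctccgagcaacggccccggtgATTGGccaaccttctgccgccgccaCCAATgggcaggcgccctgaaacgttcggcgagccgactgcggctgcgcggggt

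E2F letters occurred both in replication genes that fell and in those that did not pass. Whether letters and calls are related was not tested. E2F letters stood in 7 of the 11 windows of replication genes that fell and in 9 of the 18 that did not pass the test. CHR letters stood in all 3 windows of mitosis genes that fell and in 9 of the 11 that did not pass. BUB1, the gene that rose, has CCAAT in both orientations but no CHR letters in its window of 300 bases. These counts are small and describe letters, not bound sites. They leave out MCM4, MCM5, AURKA, BIRC5 and TPX2, which fell but had no window.

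**Figure D1:**
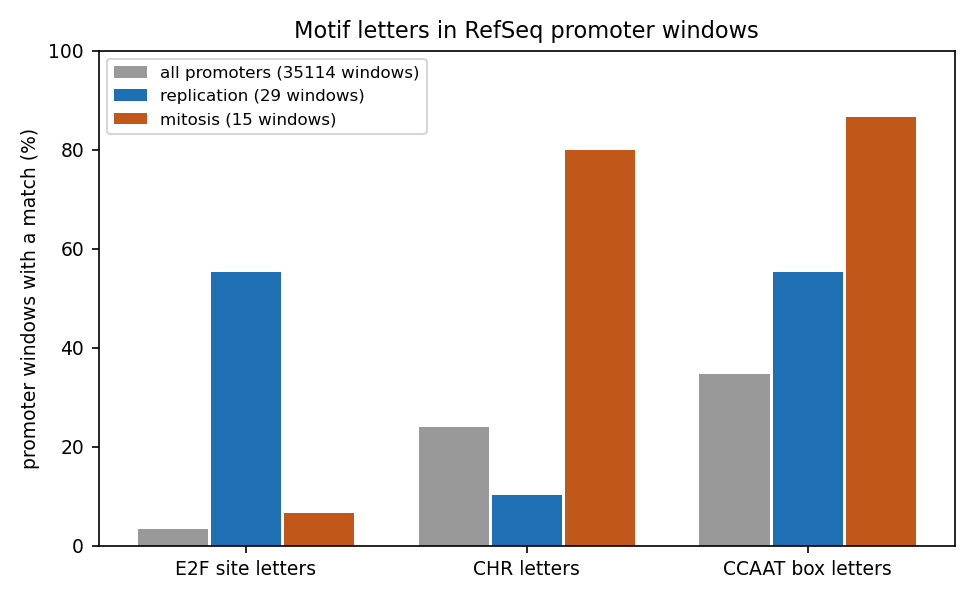
Share of RefSeq promoter windows (vertical axis, percent) that hold E2F, CHR or CCAAT letters (horizontal axis), for all promoters (grey, 35114 windows), replication genes (blue, 29) and mitosis genes (orange, 15). The replication bar is highest for E2F letters at 55.2%, and the mitosis bars are highest for CHR letters at 80% and CCAAT at 86.7%.

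The libraries held 17260936 to 24423028 estimated counts. The 2 libraries of a group differed by more than sampling noise (chi-square per degree of freedom 3.86 for JAZF1-SUZ12 and 3.61 for mock). Transcript counts of the fusion partners followed the labels: JAZF1 had 574 and 731 counts with the fusion and 12 and 27 in mock, and SUZ12 had 4754 and 6582 against 2781 and 2798. These gene counts do not separate the fusion transcript from the native ones. The source label says uterus. All 9 erythroid marker genes were expressed, with summed levels of 11108 to 11428 CPM (counts per 1000000, scaled by TMM) with the fusion and 9725 to 10004 CPM in mock, while the 7 endometrial stromal markers summed to 7.22 to 8.54 and 5.55 to 6.70 CPM and LUM was at 0 in all 4 libraries. The lymphoid markers (5 genes, MS4A1 at 0) summed to 19.3 to 22.0 and 18.3 to 21.4 CPM, and the monocyte markers (4 genes) to 23.5 to 24.7 and 32.2 to 36.7 CPM. The part of the higher erythroid sum in the results below was not tested.

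All 53 genes passed the filter on low counts. UBE2C, with 5 and 8 counts against 13 and 11 in mock, passed through the mock libraries alone. That favours a negative sign for it, so its place among the genes below 0 and below both mock libraries carries no weight. A gene is called below when its adjusted p is under 0.05 in edgeR's quasi-likelihood test with Benjamini-Hochberg adjustment over the 14750 genes tested. The transcripts of 19 genes fell with JAZF1-SUZ12, 1 rose (BUB1) and 33 did not pass. Of all genes tested, 11.4% were called lower, 13.3% higher and 24.7% in either direction, so 19 of 53 (35.8%) lower calls compare with a background of 11.4%. The shifts were small: the called decreases ran from −0.13 to −0.50 on the log2 scale, and the median over the 53 genes was −0.13, a change of −8.46%. Both JAZF1-SUZ12 libraries lay below both mock libraries for 38 genes (71.7%), against 30.3% of all genes, and above both for 4 genes, against 31.0% of all. The other 11 overlapped. Fold changes were below 0 for 46 of the 53 genes, against 49.5% of all genes tested.

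The contrast was smaller against well-counted genes, a set with a minimum of 500 counts that is not matched in depth to the 53 genes. How far depth bears on the remaining contrast was not tested. Well-counted genes as a class lay lower in the JAZF1-SUZ12 libraries: the 7318 genes averaging 500 counts or more had a median log2 fold change of −0.06, 65.8% had a negative fold change, 46.4% lay below both mock libraries and 20.9% were called lower, while the median over all genes tested was 0.0032. Of the 53 genes, 49 reach that mean, and of these 17 were called lower (34.7%), 34 lay below both mock libraries (69.4%) and the median was −0.11. With the same minimum, the median was −0.11 over 30 replication genes and −0.11 over 19 mitosis genes, which differ from that of the well-counted genes by −0.054 and −0.048. For all 33 and all 20 genes the differences were −0.070 and −0.058, and they moved with single libraries, to −0.044 and −0.029 without mock 1 and to −0.047 and −0.050 without JAZF1-SUZ12 2. Within the 53 genes, fold change and mean level had a Spearman coefficient of 0.16 over genes that share these 4 libraries.

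The count of calls depended on single libraries. Lower calls over all genes tested also became fewer without mock 1, mock 2 or JAZF1-SUZ12 2. Lower calls of the 53 genes dropped by a larger share than those over all genes in each of these fits. Whether the drops differ was not tested. Dependence on single libraries also limits such counts of the other lists below. Fewer of the 53 genes were called lower whichever library was left out, and BUB1 was not called without mock 1. The lone library of a pair was assumed to vary like the other pair. Without mock 1 the median log2 fold changes of replication and mitosis genes were −0.096 and −0.080, beside −0.052 for well-counted genes. Without JAZF1-SUZ12 2 they were −0.092 and −0.096, beside −0.046. Without mock 2 they were −0.13 and −0.098, beside −0.055. Without JAZF1-SUZ12 1 they were −0.14 and −0.14, beside −0.073. All 20 called genes kept their direction in these 4 fits, and MCM4, PCNA, RRM2, FEN1, CDC20 and AURKA kept the call in each.

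**Figure D2:**
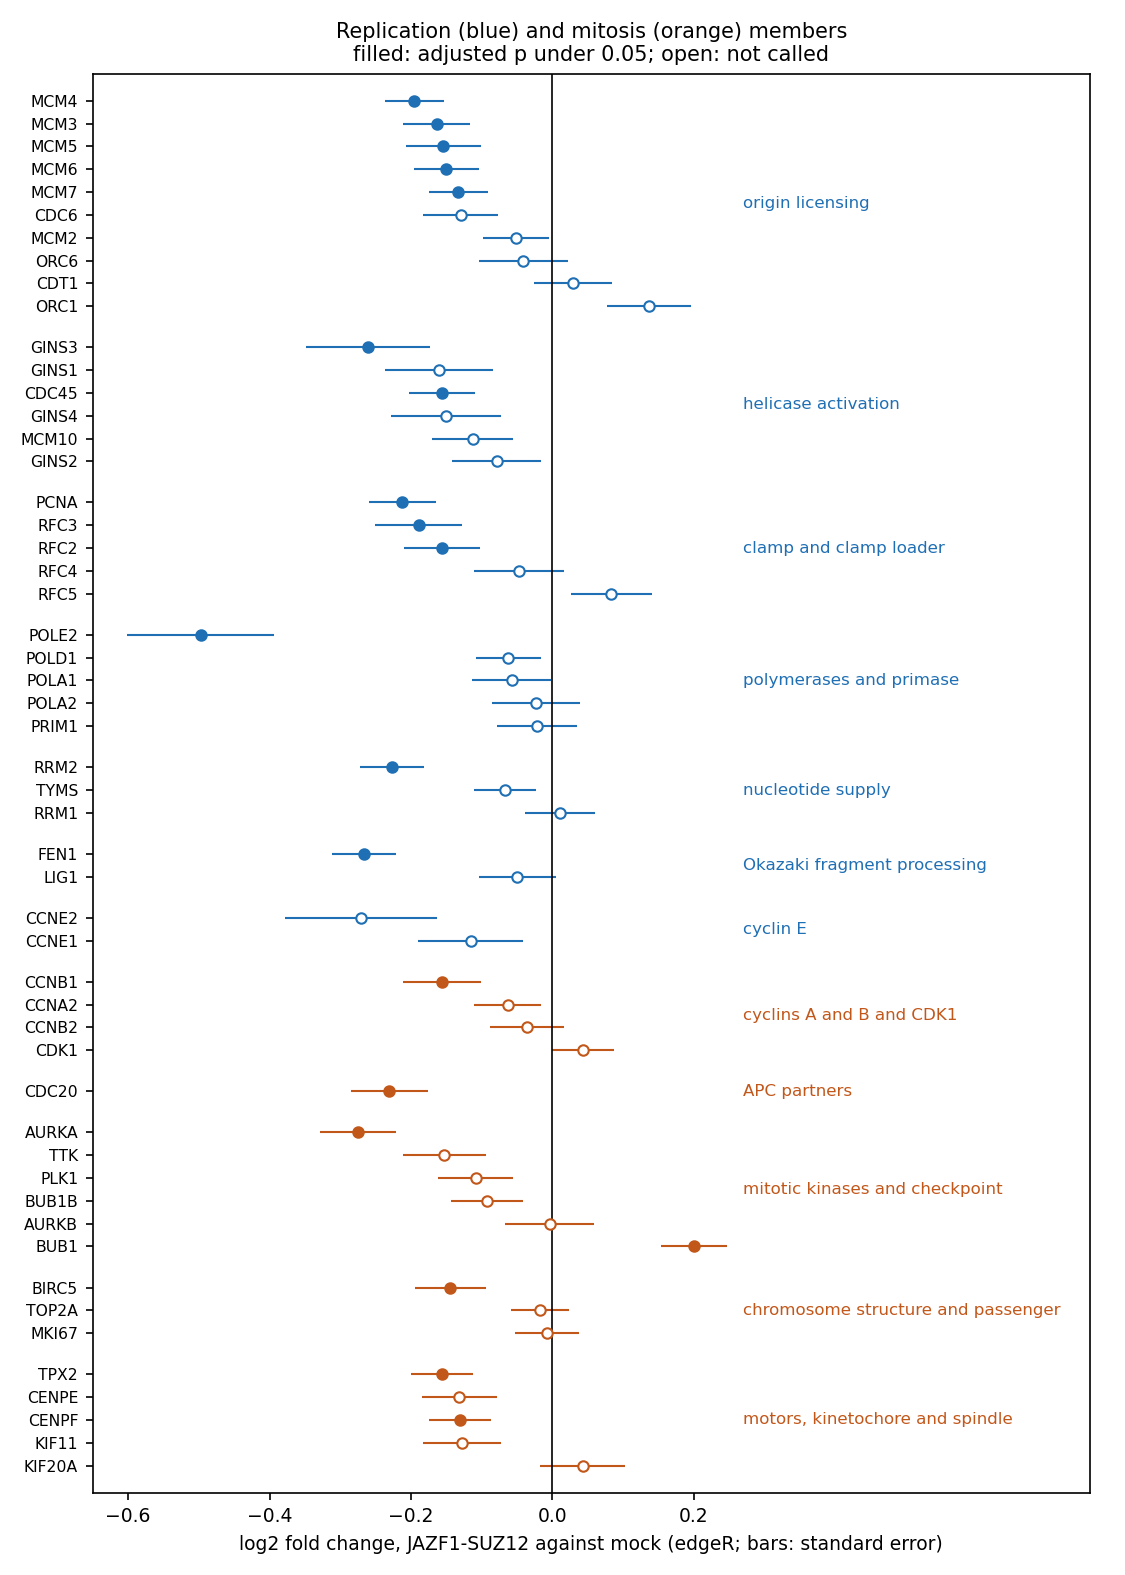
Log2 fold change between JAZF1-SUZ12 and mock libraries (horizontal axis, points with standard error bars, edgeR) for 52 of the 53 genes (vertical axis, grouped by role), replication in blue and mitosis in orange, filled where adjusted p is under 0.05. UBE2C (−0.90, standard error 0.65) is left out for scale. Filled points lie to the left of 0 in every role except cyclin E, which has none, and BUB1 at 0.20 is the only filled point to the right.

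In origin licensing, 5 of 10 genes fell and none rose at the adjusted threshold (1 rose and 6 fell at an unadjusted p under 0.05). All 5 are subunits of the MCM2 to MCM7 helicase ring. MCM4 (chromosome 8) had 387 and 388 CPM with the fusion against 442 and 446 CPM in mock. The pairs lie well apart, and its log2 fold change was −0.20 (standard error 0.04, adjusted p = 0.00275 in edgeR). MCM3 fell by 0.16 (adjusted p = 0.0181), MCM5 by 0.15 (0.0426), MCM6 by 0.15 (0.0252) and MCM7 by 0.13 (0.0295), all on the log2 scale. The MCM5 call was lost with DESeq2 (where 7.13% of all genes were called lower and 9.19% higher), with scaling by total counts, with a mean of at least 50 counts, and without JAZF1-SUZ12 2 (−0.09), mock 1 or mock 2. MCM3, MCM6 and MCM7 also lost the call without each of those 3 libraries. MCM2, the remaining subunit of the ring and a common proliferation marker (chromosome 3, 127598223 to 127622436 of GRCh38), had 224 and 215 CPM against 230 and 225 CPM. Its fusion libraries lay below both mock libraries by little, and the log2 fold change of −0.05 did not pass (95% interval −0.15 to 0.05, adjusted p = 0.463).

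Of the factors that load that ring, the 4 among the 53 genes did not pass the test. CDC6, the ATPase that helps load it, had a log2 fold change of −0.13 (adjusted p = 0.0885), and it passed as lower with GC and length offsets (−0.17, adjusted p = 0.0433, or 0.0297 with the replicate block) and without JAZF1-SUZ12 1 (adjusted p = 0.0437). CDT1, its partner, was at 0.03 (adjusted p = 0.750) and ORC6, an origin recognition subunit, at −0.04 (0.682). ORC1, the largest origin recognition subunit, had 112 and 103 CPM against 101 and 94.1 CPM. Its fusion libraries lay above both mock libraries, with a log2 fold change of 0.14 (adjusted p = 0.111), and it passed as higher when genes averaging under 50 counts were dropped (adjusted p = 0.0466) and without JAZF1-SUZ12 2 (adjusted p = 0.0326).

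All 6 genes of helicase activation had negative fold changes in edgeR and 2 fell. The authors' deposited table instead gives GINS4 a positive fold change of 0.37 (standard error 0.16). CDC45, which rides with the ring at the fork (chromosome 22, 19479459 to 19520612), had 302 and 286 CPM against 333 and 321 CPM. The groups did not overlap, and the log2 fold change was −0.16 (standard error 0.05, adjusted p = 0.0213), a call lost without mock 1 or JAZF1-SUZ12 2. GINS3, a subunit of the GINS complex, fell by 0.26 (adjusted p = 0.0393), a call absent in DESeq2, with scaling by total counts, with a mean of at least 50 counts and in each fit that left out a library. The other GINS genes and MCM10, a fork assembly factor, did not pass: GINS1 −0.16, GINS4 −0.15, GINS2 −0.08 and MCM10 −0.11.

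In the clamp and its loader, 3 of 5 genes fell. PCNA, the sliding clamp that tethers polymerases (chromosome 20, 5114953 to 5126626), had 179 and 176 CPM against 209 and 202 CPM. The 2 groups lie apart by several times the gap within either, with a log2 fold change of −0.21 (standard error 0.05, adjusted p = 0.00371). Of the loader subunits, RFC3 fell by 0.19 (adjusted p = 0.0345) and RFC2 by 0.16 (0.0445), and neither call held in DESeq2, with scaling by total counts, with a mean of at least 50 counts or with 1 library left out. RFC4 (−0.05) and RFC5 (0.08) did not pass, so the loader's measured subunits were not all called together.

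POLE2, a subunit of the leading-strand polymerase epsilon (chromosome 14, 49643555 to 49688422), had the largest decrease called among the 53 genes. Its levels were 17.5 and 18.6 CPM against 27.9 and 23.3 CPM. The mock libraries differ from each other about as much as mock 2 does from the fusion libraries, and the log2 fold change was −0.50 (standard error 0.10, adjusted p = 0.00236). It ranged from −0.62 to −0.36 with 1 library left out, and the call was lost without mock 1 (−0.36, adjusted p = 0.0519). The other 4 polymerase and primase genes among the 53 were not called: POLD1, the catalytic subunit of polymerase delta, −0.06, POLA1 −0.06 and POLA2 −0.02, subunits of polymerase alpha, and PRIM1, the primase, −0.02.

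Nucleotide supply split within 1 enzyme. RRM2, the small subunit of ribonucleotide reductase whose level changes with S phase (chromosome 2, 10120698 to 10131419), had 235 and 229 CPM against 268 and 275 CPM. The groups lie apart, with a log2 fold change of −0.23 (standard error 0.05, adjusted p = 0.00164). RRM1, its large partner, had a log2 fold change of 0.01 (95% interval −0.10 to 0.12, adjusted p = 0.906). The RRM2 to RRM1 ratio of CPM was 0.908 and 0.959 with the fusion and 1.11 and 1.09 in mock, a ratio without length correction that can be read only between libraries. TYMS, which makes thymidylate, had a log2 fold change of −0.07 (95% interval −0.16 to 0.03, adjusted p = 0.294).

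Okazaki fragment processing showed the same kind of split in edgeR. FEN1, the nuclease that trims the flap of each fragment (chromosome 11, 61792637 to 61797244), had 199 and 194 CPM against 235 and 237 CPM. The fusion libraries lie below both mock libraries by a wide gap, and the fold change of −0.27 (standard error 0.05) had the smallest adjusted p of the 53 genes, 0.000533. LIG1, the ligase that seals the nick, had −0.05 (95% interval −0.16 to 0.06, adjusted p = 0.555). It ranged from −0.11 to −0.03 under the 9 alternatives that kept every library. The authors' deposited table gives LIG1 −0.18 (standard error 0.09) beside −0.27 (0.07) for FEN1, so the size of this split depended on the processing.

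Neither cyclin E gene, whose products drive entry into S phase with CDK2, was called (0 of 2 in edgeR, DESeq2 and limma-voom, 1 at an unadjusted p under 0.05). CCNE1 had 31.2 and 31.7 CPM against 34.5 and 33.8 CPM. CCNE2 had 17.2 and 15.8 CPM against 20.9 and 18.8 CPM. Both lay below both mock libraries, with log2 fold changes of −0.12 (95% interval −0.27 to 0.04, adjusted p = 0.286) and −0.27 (−0.50 to −0.04, adjusted p = 0.0789). The fold change of CCNE2 equals that of FEN1 to 2 decimals, but its standard error was 0.11 at a mean of 377 counts.

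Among the mitosis genes 6 fell and 1 rose. In the group that drives entry, CCNB1, cyclin B1 (chromosome 5, 69167010 to 69178245), had 168 and 158 CPM against 190 and 173 CPM. Mock 2 lies close to JAZF1-SUZ12 1, and the call of −0.16 was narrow (standard error 0.06, adjusted p = 0.0497). It was lost with DESeq2, with scaling by total counts, with a mean of at least 50 counts, with GC and length offsets, and with mock 1 (−0.08) or JAZF1-SUZ12 2 (−0.11) left out. CDK1, its kinase, had 292 and 289 CPM against 278 and 285 CPM, with no overlap and a log2 fold change of 0.04 (95% interval −0.05 to 0.14, adjusted p = 0.520). CCNA2, cyclin A2, had 277 and 262 CPM against 288 and 275 CPM, which overlap, and a log2 fold change of −0.06 (95% interval −0.16 to 0.04, adjusted p = 0.367). CCNB2 was at −0.04.

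CDC20, which activates the anaphase-promoting complex (chromosome 1, 43358955 to 43363203), had 89.7 and 87.3 CPM against 104 and 103 CPM. The groups lie apart, with a log2 fold change of −0.23 (standard error 0.05, adjusted p = 0.00557). UBE2C, the ubiquitin-conjugating enzyme of that complex, was nearly undetected in every library, with 5 and 8 counts against 13 and 11. Its fold change of −0.90 has a 95% interval from −2.28 to 0.48 and says little at this depth. Per kilobase of its longest annotated transcript UBE2C had 0.636 CPM in mock, where CDC20 had 58.4 CPM per kilobase. Whether the identifier or the annotation used for counting bears on this low value was not tested.

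The mitotic kinases moved in both directions in edgeR. The authors' deposited table has the same signs with smaller values, −0.14 for AURKA and 0.10 for BUB1, and calls neither. AURKA, the Aurora kinase of the spindle poles (chromosome 20, 56369389 to 56392337), had 88.9 and 89.8 CPM against 108 and 109 CPM. This is a gap of many times the difference within a pair, with a log2 fold change of −0.27 (standard error 0.05, adjusted p = 0.00149). AURKB, the Aurora kinase of the chromosomal passenger complex, had −0.0036 (95% interval −0.14 to 0.13, adjusted p = 0.976), and its sign turned with scaling by total counts (0.02) and with the filter of a mean of at least 50 counts (0.02). The AURKA to AURKB ratio of CPM was 1.72 in both fusion libraries and 2.08 and 2.07 in mock.

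BUB1, a spindle checkpoint kinase (chromosome 2, 110637698 to 110678114) whose library values are given because it alone rose, had 253 and 244 CPM against 211 and 221 CPM. Both fusion libraries lie above both mock libraries, with a log2 fold change of 0.20 (standard error 0.05, adjusted p = 0.00565). Without mock 1 the value was 0.17 and the call was lost. Its paralogue BUB1B, or BubR1, another checkpoint protein, had −0.09 (adjusted p = 0.210), and the BUB1 to BUB1B ratio of CPM was 2.09 and 2.04 with the fusion and 1.62 and 1.75 in mock. TTK, the checkpoint's upstream kinase, had −0.15 (adjusted p = 0.0702) and PLK1, a kinase of mitotic entry and the spindle, −0.11 (0.155).

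MKI67 and TOP2A, both in wide use as proliferation markers, did not pass the test. MKI67, which coats mitotic chromosomes (chromosome 10, 128096659 to 128126385), had 425 and 408 CPM against 406 and 430 CPM, overlapping groups with a log2 fold change of −0.0074 (95% interval −0.10 to 0.09, adjusted p = 0.928). TOP2A, the topoisomerase that untangles chromosomes (chromosome 17, 40388516 to 40417950), had 725 and 701 CPM against 731 and 712 CPM, also overlapping, at −0.02 (95% interval −0.10 to 0.07, adjusted p = 0.805). Both signs turned with scaling by total counts and with the filter of a mean of at least 50 counts. With GC and length offsets MKI67 was at −0.12 (adjusted p = 0.142) and TOP2A at −0.04 (adjusted p = 0.652). For TOP2A the lower end of that interval lies above the fold changes of PCNA, RRM2, FEN1 and MCM4. BIRC5, or survivin, a passenger protein, had 130 and 129 CPM against 145 and 141 CPM and fell by 0.14 (adjusted p = 0.0458), a call lost with DESeq2, with scaling by total counts, with a mean of at least 50 counts and with each library left out in turn.

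Of the motor, kinetochore and spindle genes 2 of 5 fell. TPX2, which activates AURKA on spindle microtubules (chromosome 20, 31739271 to 31801805), had 313 and 305 CPM against 348 and 340 CPM. The groups lie apart, with a log2 fold change of −0.16 (standard error 0.04, adjusted p = 0.0155), and the call was lost without mock 1 or JAZF1-SUZ12 2. CENPF, a large kinetochore protein, fell by 0.13 (adjusted p = 0.0388), a call lost with scaling by total counts, with a mean of at least 50 counts and with each library left out in turn. CENPE, a kinetochore motor (−0.13, adjusted p = 0.0816), and KIF11, the motor that separates spindle poles (−0.13, adjusted p = 0.105), had values of the same size that did not pass. KIF20A, a motor of cytokinesis, was at 0.04.

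**Figure D3:**
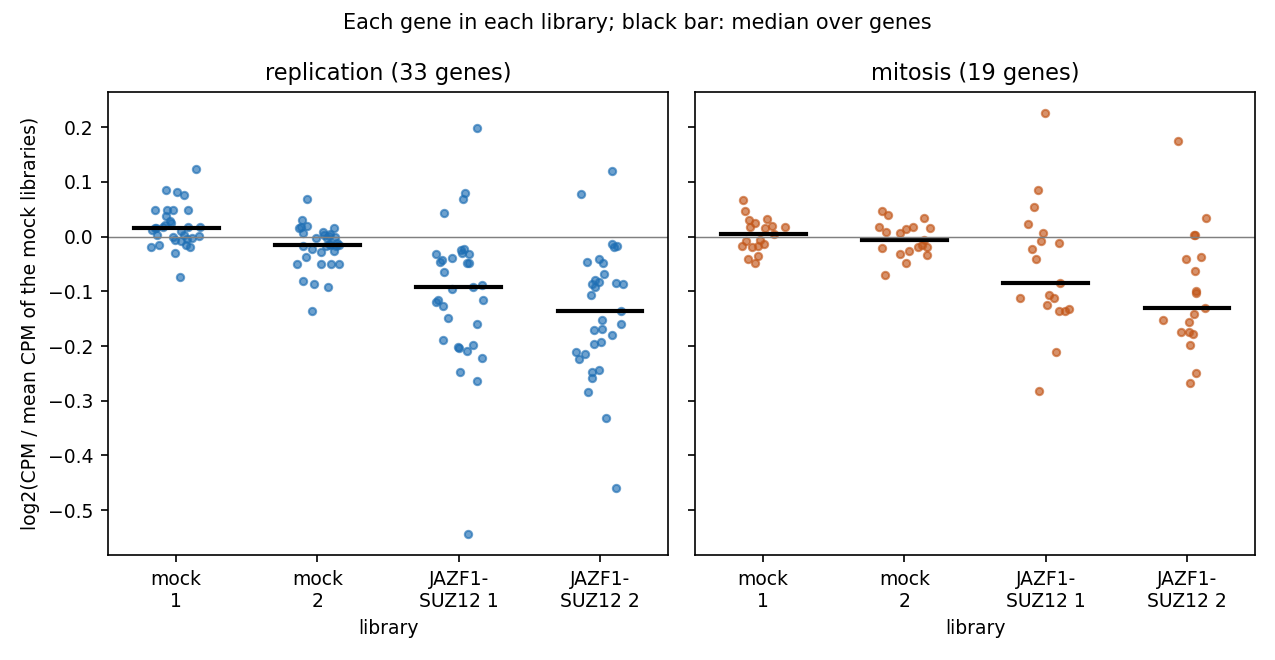
Each gene in each library as log2 of its CPM over the mean CPM of the mock libraries (vertical axis) for 33 replication genes (left) and 19 mitosis genes without UBE2C (right), by library (horizontal axis). Black bars are medians over genes: for replication 0.02 and −0.02 in mock and −0.09 and −0.14 with the fusion, for mitosis 0.0054 and −0.0054 in mock and −0.08 and −0.13 with the fusion.

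Replication and mitosis genes were then set against each other, which asks whether one phase of the cycle moved more than the other. The median log2 fold change was −0.13 over 33 replication genes (13 lower, 0 higher) and −0.12 over 20 mitosis genes (6 lower, 1 higher). No replication gene was called higher by edgeR, DESeq2 or limma-voom, and 1 rose at an unadjusted p under 0.05 in edgeR. Both fusion libraries lay below both mock libraries for 25 replication genes (75.8%) and 13 mitosis genes (65%), UBE2C among the latter. This compares with 30.3% of all genes tested and 46.4% of well-counted genes. The share called lower was 39.4% of the replication genes and 30% of the mitosis genes, against 11.4% of all genes and 20.9% of well-counted genes. The difference between replication and mitosis genes in this share was not tested.

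Within a library, the mean log2(CPM + 1) over replication genes minus that over mitosis genes was −0.233 and −0.228 with the fusion and −0.192 and −0.215 in mock. The mock libraries differ from each other by more than mock 2 differs from the fusion libraries. The difference between groups was −0.03, with a pooled SD within groups of 0.01, and 2 libraries against 2 cannot give an exact permutation p below 0.333, so no test was made. Its size depended on how UBE2C was treated: a pseudocount of 0.1 CPM gave −0.0051, and leaving out genes under a mean of 50 counts, which drops UBE2C alone, gave −0.04. It also depended on the summary, since a median over genes gave 0.17 and the log2 ratio of summed CPM −0.06. The summed level of replication genes was 1.31 times that of mitosis genes in both fusion libraries and 1.36 times in both mock libraries, with changes of −7.75% for the replication sum and −4.03% for the mitosis sum.

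**Figure D4:**
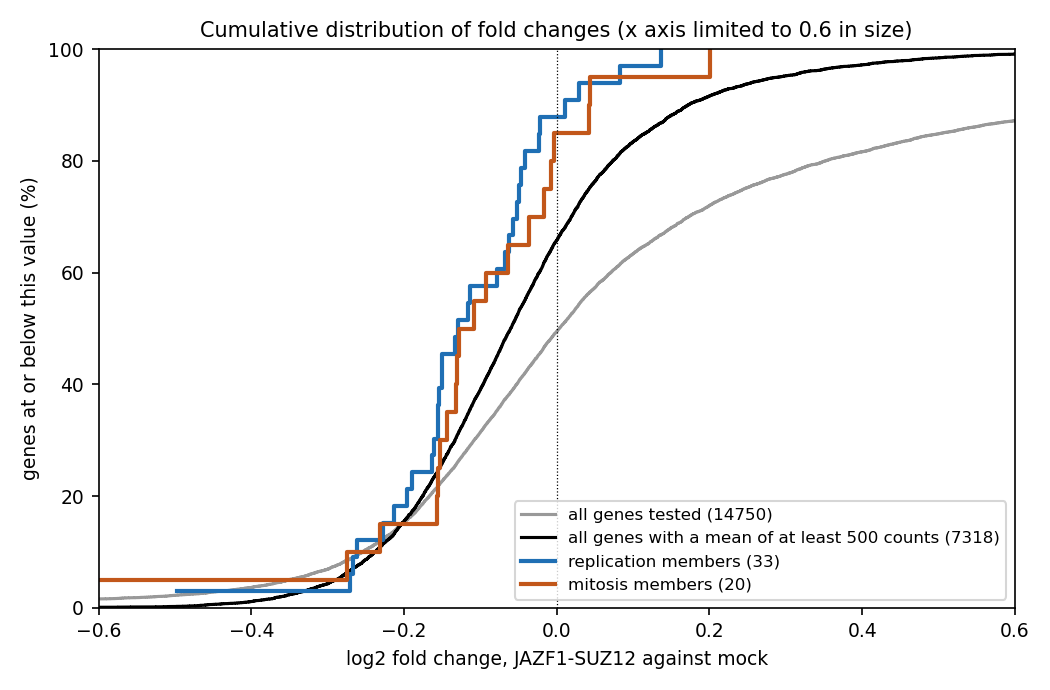
Cumulative share of genes (vertical axis, percent) at or below each log2 fold change between JAZF1-SUZ12 and mock (horizontal axis, limited to 0.6 in size) for all 14750 genes tested (grey), the 7318 averaging 500 counts or more (black), 33 replication genes (blue) and 20 mitosis genes (orange). The coloured steps run close to each other and, in their upper part, lie to the left of both background curves, whose medians are 0.0032 and −0.06.

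Genes of these pathways outside the 53 were read in the same fit. Of 42 other replication genes 11 fell (26.2%, against 11.4% of all genes and 20.9% of well-counted genes) and 1 rose, with a median log2 fold change of −0.12. With mock 1 left out 6 fell, with mock 2 left out 7 fell, and none rose with JAZF1-SUZ12 2 or mock 2 left out. The 4 with the smallest p were UHRF1, which brings the maintenance DNA methyltransferase to new DNA (−0.35, adjusted p = 0.000179), ORC5, an origin recognition subunit (−0.36, adjusted p = 0.00149), DSCC1, of an alternative clamp loader (−0.38, adjusted p = 0.00386), and MCMBP, which binds the MCM ring (−0.30, adjusted p = 0.00402).

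Of 52 other mitosis genes 8 fell and none rose in edgeR, also at an unadjusted p under 0.05, nor in DESeq2 or limma-voom, with a median of −0.10. The share of 8 in 52 (15.4%) compares with 11.4% of all genes and 20.9% of well-counted genes. With GC and length offsets 15 of 52 were lower (28.8%, against 16% of all genes), and 17 with offsets and the replicate block (32.7%, against 18.1%). ZWINT, a kinetochore protein (−0.31, adjusted p = 0.000472), CDCA5, or sororin, which protects cohesion (−0.23, adjusted p = 0.00372), TACC3, a spindle protein (−0.22, adjusted p = 0.00490), and UBE2S, another enzyme of the anaphase-promoting complex (−0.21, adjusted p = 0.00533), had the smallest p. Without mock 1 only 4 of these genes were called.

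The transcription factors and pocket protein complexes that read E2F and CHR sites were called lower at about the share of all genes tested. Of 20 genes 2 fell (10%, against 11.4% of all genes and 20.9% of well-counted genes). With GC and length offsets 4 of 20 fell, where 16% of all genes were lower. None rose in edgeR, DESeq2 or limma-voom, and 1 rose at an unadjusted p under 0.05 in edgeR. E2F4, the repressor of the DREAM complex, was at −0.20 (adjusted p = 0.0280) and E2F2, an activator, at −0.21 (adjusted p = 0.0333), and DESeq2 called neither. Among the G1 cyclins and their kinases, which act upstream of E2F, 4 of 7 fell (57.1%, against 11.4% of all genes and 20.9% of well-counted genes) and none rose in edgeR, also at an unadjusted p under 0.05, or in DESeq2 or limma-voom. They were CDK6 (−0.23, adjusted p = 0.00316), CDC25A, the phosphatase that activates CDK2 (−0.19, adjusted p = 0.0239), CCND3 (−0.15, adjusted p = 0.0263) and CDK4 (−0.15, adjusted p = 0.0302). With mock 1, mock 2 or JAZF1-SUZ12 2 left out, 1 of the 4 stayed called, and CDK6 was called in all 4 such fits.

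**Figure D5:**
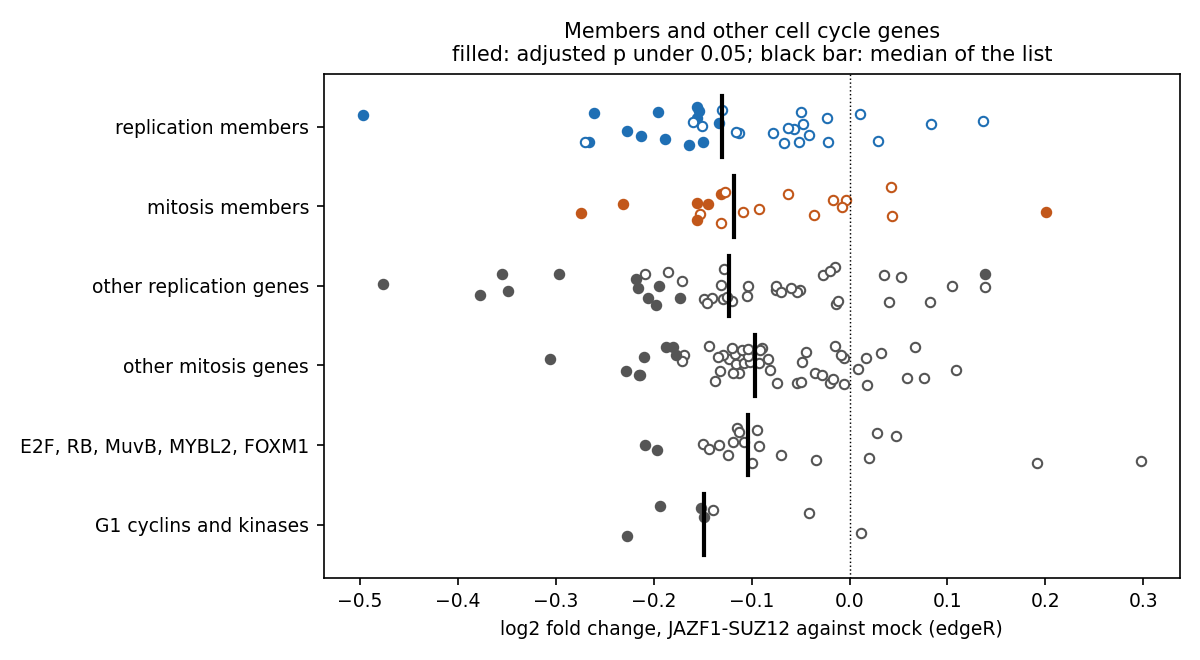
Log2 fold change between JAZF1-SUZ12 and mock libraries (horizontal axis, edgeR) for each gene of 6 lists (vertical axis), filled where adjusted p is under 0.05, with a black bar at the median of each list. UBE2C is not drawn but counts in its median; all 6 medians lie below 0, from −0.10 to −0.15.

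The authors' deposited table of this comparison lists all 53 genes and calls fewer. Of these genes, 4 in the authors' deposited table are lower at an adjusted p under 0.05 (PCNA 0.0243, RRM2 0.0147, FEN1 0.00303 and CENPF 0.00532) and 0 higher, where 3.57% of all its genes with an adjusted p are lower and 4.93% higher. The authors' deposited table gives a negative fold change for 44 of the 53 genes and a median of −0.10, with 2 signs opposite to those here, neither of a gene called here. These were GINS4 (0.37, against −0.15 here) and CENPE (0.0028, against −0.13 here). The median standard error of these genes is 0.09 in the authors' deposited table and 0.05 in edgeR. DESeq2 run on the deposited counts called 13 lower and 1 higher, all among the 20 of edgeR, and limma-voom called 19 lower and 1 higher.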

How the data were processed

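RNA sequencing libraries from K562 cells were analysed, 2 with JAZF1-SUZ12 and 2 mock, grouped by their labels. The authors' deposited count table holds estimated counts per gene, unscaled, with values that are not whole (beyond 1e-06) in 29.9% to 33.6% of genes; they were rounded to whole numbers. The authors' deposited comparison table holds, per the file headers, a mean normalized signal, a log2 fold change with its standard error, a test statistic (a score) and p-values. Per the submitters' processing notes, fastp 0.20.1, FastQC 0.11.7, MultiQC 1.5, kallisto 0.46.2, DESeq2 1.30.1 and hg38 were used; their order, the annotation and the strand setting are not given in the sources used here, so reads of overlapping or near-identical genes may be split between them.

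The test was edgeR 4.0.16 (quasi-likelihood F test, two-sided, TMM scaling, filterByExpr by group) in R 4.3.3 on all 35606 genes, of which 14750 passed, with a threshold of 0.05. CPM are counts per 1000000 of the TMM-scaled library, with factors of 0.99 to 1.02. A fold change's standard error is its size over the square root of F, and its 95% interval uses the test's degrees of freedom. Alternatives used DESeq2 1.42.0, limma 3.58.1 (voom), other scalings and filters, offsets for GC content and length (GENCODE 29, loess span 0.5), the replicate number as a block, and leaving out each library. Positions are from GENCODE 29 (GRCh38), promoters from RefSeq (GRCh38.p14). On simulated counts edgeR called 100 of 100 genes changed by 2-fold and 82 of 100 changed by 1.25-fold, with 6 false calls among 14483 genes. The changed genes were drawn from those averaging at least 500 counts, and the spread from edgeR's trend over expression level. Most changes called among the 53 genes were smaller than 1.25-fold, a size that was not simulated.

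Members and lists were chosen with earlier results of these data known. Every member may be named; library values are given for the smallest p of each role group, for MCM2, PCNA, RRM2, CCNE1, CCNE2, CCNA2, CCNB1, CDK1, MKI67 and TOP2A, and for 3 others chosen after their values were seen (BUB1, ORC1, UBE2C). The values of 1 gene of the list of other replication genes are not reported here. Up to 4 called genes with the smallest p are named from each of the lists of other replication genes, other mitosis genes, regulators of transcription, and G1 cyclins and kinases. Marker lists were erythroid, endometrial stromal, lymphoid and monocyte. Library totals of 17260936 to 24423028 counts limit precision for low genes.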

Additional observations from a re-analysis of the deposited data

How the results depend on the processing

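The direction of both medians and of all 20 called genes held under every alternative run. Of the 20 calls, 13 were kept under each of the 9 alternatives of scaling, tool, filter, block and offsets, and 6 of these also with any 1 library left out. Over all named genes, of the alternatives that kept every library, 556 values stayed on their side of the threshold, 26 lost and 9 gained a call, and 11 changed sign, none of a called gene: CDT1 with GC and length offsets (−0.052, and −0.052 with the block), POLA2 with a mean of at least 50 counts (0.000744), PRIM1 (0.000717 with total counts, 0.0025 with that filter), AURKB (0.019, 0.021), MKI67 (0.014, 0.016) and TOP2A (0.0043, 0.0065).

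Replication genes called lower (13) were 5 at an adjusted p under 0.01, 3 in the authors' deposited table and 4 to 12 with 1 library left out; called higher (0), 1 with a mean of at least 50 counts and 0 to 1 with 1 left out. Mitosis genes called lower (6) were 3 with total counts, 3 with a mean of at least 50 counts, 2 at 0.01, 1 in the authors' deposited table and 2 to 5 with 1 left out; called higher (1), 0 in the authors' deposited table and 0 to 1 with 1 left out. Other replication genes called lower (11) were 17 with offsets and block, 7 at 0.01 and 6 to 14 with 1 left out; called higher (1), 0 with offsets, 0 with offsets and block, 0 at 0.01 and 0 to 1 with 1 left out. Other mitosis genes called lower (8) were 15 with offsets, 17 with offsets and block, 5 at 0.01 and 4 to 10 with 1 left out. Regulators of transcription called lower (2) were 1 with total counts, 0 with DESeq2, 1 with a mean of at least 50 counts, 4 with offsets, 4 with offsets and block, 0 at 0.01 and 0 to 3 with 1 left out; called higher (0), 1 with a mean of at least 50 counts and 0 to 1 with 1 left out. G1 genes called lower (4) were 1 at 0.01 and 1 to 4 with 1 left out.

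The replication median (−0.13) was −0.11 with total counts, −0.11 with a mean of at least 50 counts, −0.16 with offsets, −0.16 with offsets and block, and −0.14 to −0.092 with 1 library left out. The mitosis median (−0.12) was −0.096, −0.085, −0.15 and −0.14 under the same settings and −0.14 to −0.080 with 1 left out. The replication minus mitosis level (−0.03) was −0.0051 with a pseudocount of 0.1, 0.17 as a median over genes, −0.057 as a ratio of sums, and −0.04 to −0.02 with 1 left out. The cause was not tested. Lower calls over all 14750 genes tested also moved with the setting, and the counts of the lists above are to be read beside them. They were 1688 in the main fit, 1351 with total counts, 1051 with DESeq2, 2367 with offsets and 2664 with offsets and block. With a mean of at least 50 counts they were 1394 of 11826 genes. Of all calls in edgeR, 53.7% were higher, against 41.6% with offsets and 40.3% with offsets and block. Replicate numbers did not pair the libraries (correlation of deviations −0.0026 over 14750 genes), and the replicate block left 13 replication and 6 mitosis genes lower and 1 higher, with medians of −0.13 and −0.12.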
